A study of Drosophila melanogaster with 72 samples.

Results

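The comparison described here set fly bodies under time-restricted feeding (TRF) against bodies of flies fed ad libitum (ALF) at the hours when both had food. It used 8 of the 72 libraries of the study, 4 TRF and 4 ALF, taken from the periphery (the body without the head) at zeitgeber time (ZT) 3, 6, 9 and 12, where ZT counts hours from lights on. All 8 libraries came from male Oregon R flies, a laboratory wild type, at 5 weeks of age. ALF flies were kept on cornmeal molasses agar throughout, and TRF flies were moved between that food and agar with water only. The labels do not give the hours of feeding; that food was present from ZT03 to ZT12 in both groups is taken from what is known of the study. Each combination of feeding type and ZT was 1 library, so the 4 hours of a feeding type served as its replicates. The labels do not say how many flies went into a library or whether the libraries came from separate cultures. The p-values therefore measure the spread between these hours only. In the comparison paired by ZT, an effect of the hour common to both groups is taken out. An effect of the hour on the difference between the groups is part of that spread.

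In the fly, feeding and the circadian clock both set daily rhythms of RNA in the gut, fat body, tubules and muscle. The clock is a loop in which CLOCK and CYCLE switch on per and tim, whose proteins return to the nucleus and shut that activity off. The fat body, which does the work of liver and fat tissue, also makes antimicrobial peptides under the Toll and Imd pathways, while the gut secretes proteases, amylases and maltases during digestion. Comparing the groups while both can eat asks what differs between the feeding regimes outside the hours of fasting. Any effect of the fast that lasts into these hours is part of that difference.

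Levels are given as FPKM, reads scaled to transcript length and library depth. Depth, in units of 1e6 reads, was 6.48 to 21.7 per library, lowest for TRF at ZT09 and highest for TRF at ZT03. Markers of the tissue were as follows: ninaE, the main rhodopsin, was at most 0.213 FPKM, while the sperm gene Mst87F was 574 to 762 FPKM and the gut trypsin betaTry 1488 to 1923 FPKM. Act57B, a body-wall muscle actin, was 870 to 1095 FPKM, whereas Act88F, the actin of flight muscle, was 20.5 to 50.2 FPKM. Of 3 fat body genes, Rfabg, the apolipophorin precursor, was 80.5 to 257 FPKM, the storage protein gene Lsp2 was 16.6 to 91.9 FPKM, and Fbp1 was at most 0.07 FPKM.

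Clock genes gave reason to doubt that the same labelled hour was the same phase in both groups. tim was 43.5, 11.9, 17.9 and 43.8 FPKM at ZT03, ZT06, ZT09 and ZT12 in ALF, and 131, 32.1, 8.24 and 17.9 FPKM in TRF. Its lowest value of the 4 was thus at ZT06 in ALF and at ZT09 in TRF. per followed the same order, with 5.89, 3.32, 5.35 and 8.09 FPKM in ALF and 18.2, 4.53, 2.60 and 4.74 FPKM in TRF. vri, a repressor of Clk, was lowest at ZT06 in ALF (20.9 FPKM) and at ZT09 in TRF (21.6 FPKM). cry, the blue-light photoreceptor of the clock, was 70.3 FPKM in TRF and 148 FPKM in ALF at ZT03, and 145 and 148 FPKM at ZT06.

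Setting each TRF library beside the ALF library labelled 3 h earlier brought the clock genes closer. Over all 8 hours of the day and 7 genes (per, tim, vri, Pdp1, cry, Clk and cwo), the mean absolute difference on the log2(FPKM + 1) scale was 0.49 at equal hours and 0.33 with TRF 3 h later. It was 0.64 with TRF 6 h later and 0.83 with TRF 3 h earlier. tim at TRF ZT12 and ALF ZT09 was 17.9 FPKM in both. Across all genes tested, ALF ZT03 correlated most with TRF ZT06 (Pearson r 0.984), and TRF ZT09 most with ALF ZT06 (r 0.983). TRF ZT12 correlated most with ALF ZT09 (r 0.986). Not every library followed that order: TRF ZT03 also correlated most with ALF ZT09 (r 0.987), and ALF ZT06 and ALF ZT12 each correlated most with ALF ZT09 (r 0.985 and 0.991). A later clock in TRF flies and a difference in sampling hour or labelling cannot be told apart here. Results below are as labelled, and values whose sign is reversed by a pairing 3 h apart are given with both.

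**Figure D1:**
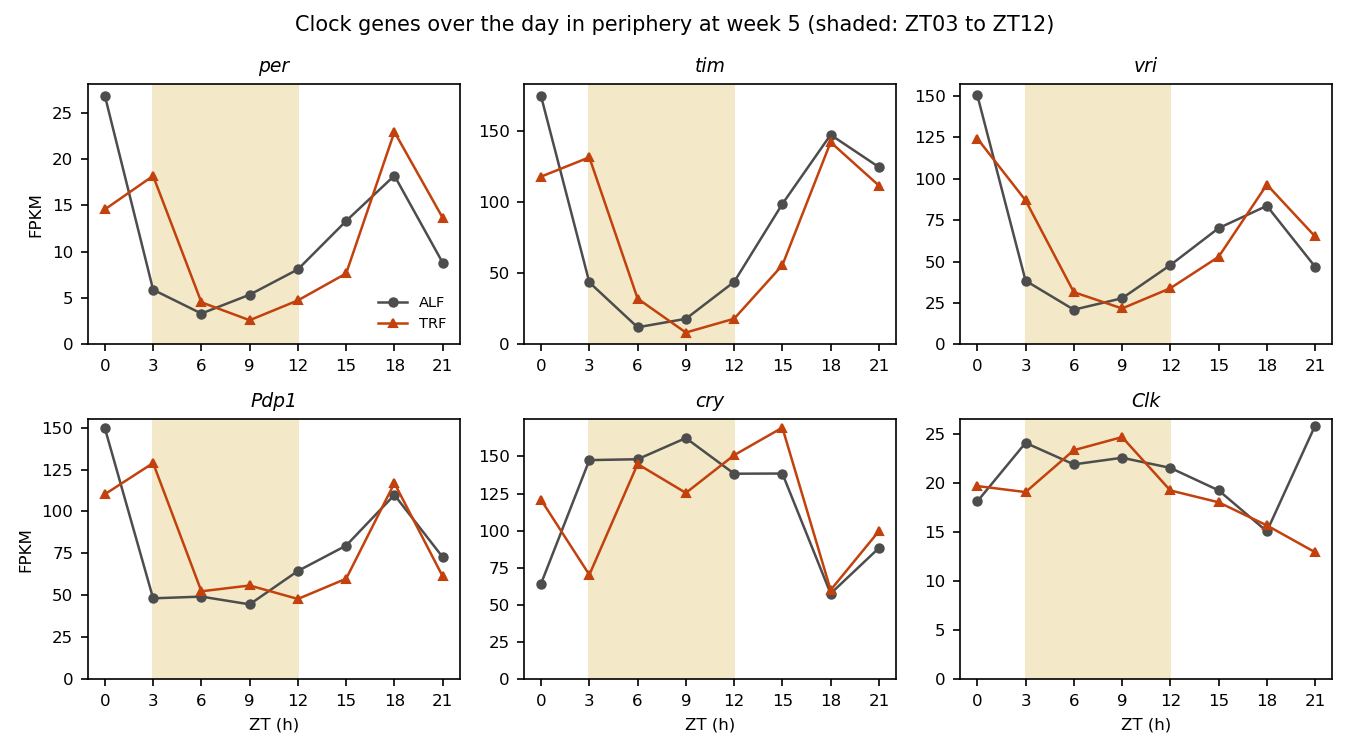
FPKM (vertical axis) of 6 clock genes against ZT in hours (horizontal axis) in periphery at week 5, 1 library per point, ALF as grey circles and TRF as orange triangles; shading marks ZT03 to ZT12. tim, per and vri reached their lowest daytime value at ZT06 in ALF and at ZT09 in TRF, and at ZT03 the TRF library held 131 FPKM of tim against 43.5 FPKM in ALF.

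No gene separated the feeding types beyond the spread between hours. Of 12045 genes tested with limma, 0 (0%) passed an adjusted p of 0.05; the lowest adjusted p was 0.413. An unadjusted p under 0.05 was reached by 306 genes, 2.54% of those tested, of which 157 were higher in TRF (1.3%) and 149 lower (1.24%). Run on reads recovered as whole numbers, limma-voom called 0 genes too, with 285 at an unadjusted p under 0.05. Pairing TRF with ALF 3 h earlier, chosen after seeing the data, gave 0 calls as well, with 776 genes at an unadjusted p under 0.05 over 3 pairs and a lowest adjusted p of 0.0615. The 4 TRF values all lay above the 4 ALF values for 98 genes (0.814%) and all below for 104 genes (0.863%), 1.68% of genes together. The sign was the same in 4 of 4 pairs for 501 genes higher in TRF (4.16%) and 449 lower (3.73%). Within single pairs, differences of at least 1 log2 unit were found in both directions. At ZT03, 303 genes (2.52%) were that much higher in TRF and 163 (1.35%) that much lower. The counts were 174 (1.44%) and 243 (2.02%) at ZT06, 164 (1.36%) and 169 (1.4%) at ZT09, and 80 (0.664%) and 137 (1.14%) at ZT12. The genes named next had the smallest unadjusted p among those with the same sign in 4 of 4 pairs, and none passed the threshold.

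The 12 leading genes that were higher in TRF are given first, beginning with Drs, the only one of them on the antimicrobial peptide list. Drs encodes drosomycin, an antifungal peptide of the Toll pathway (3L, 3369556 to 3369942 in dm3). It was 128, 89.5, 157 and 296 FPKM in ALF from ZT03 to ZT12, and 254, 172, 372 and 383 FPKM in TRF. TRF was above ALF at every hour, although the ranges of the groups overlapped. The difference was 0.88 ± 0.15 (SE) on the log2(FPKM + 1) scale, with an adjusted p of 0.953. Listericin, an antibacterial peptide, was 134, 64.0, 77.5 and 217 FPKM in ALF and 208, 184, 255 and 306 FPKM in TRF, a difference of 1.09 ± 0.23 (adjusted p = 0.999). sphinx1, a serine protease homolog that acts upstream of Toll, was 20.1 to 26.2 FPKM in ALF and 25.4 to 37.9 FPKM in TRF; it lies within CG42458, and the unstranded reads of both genes cannot be told apart.

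CG42821 stood highest in the list (3R, 13238799 to 13239361). Its values were 12.9, 13.4, 18.9 and 24.2 FPKM in ALF and 32.5, 29.3, 72.1 and 42.6 FPKM in TRF. The groups did not overlap, and the difference was 1.25 ± 0.18 with an adjusted p of 0.805. CG43134 was 58.1, 40.6, 57.8 and 65.8 FPKM in ALF and 85.1, 88.1, 88.0 and 126 FPKM in TRF, again without overlap (0.79 ± 0.12, adjusted p = 0.805). GstD3, a glutathione transferase, was nearly level over the hours within each group. It was 12.9, 14.6, 12.7 and 12.3 FPKM in ALF and 18.9, 19.9, 21.4 and 17.1 FPKM in TRF (0.52 ± 0.09, adjusted p = 0.953). Obp19d, an odorant-binding protein, ranged from 31.5 to 42.2 FPKM in ALF and from 42.9 to 57.9 FPKM in TRF. The other leading genes were lower in level: CG32284, CG31832, CG7900, CG7300 and the antisense RNA CR44181 were at most 5.86 FPKM in every ALF library and 4.45 to 16.8 FPKM in TRF. CG7300 and CR44181 overlap on opposite strands, so they are a single observation in these unstranded data, and CG31832, with as few as 3 reads in a library, lies within GABA-B-R1.

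Among the 12 leading genes that were lower in TRF, CG6908 had the smallest p (3R, 7514103 to 7515678); its values were 33.7, 31.6, 22.5 and 30.2 FPKM in ALF and 21.2, 16.8, 12.5 and 16.6 FPKM in TRF. It was thus lower at every hour by a similar amount, -0.79 ± 0.08 on the log2 scale (adjusted p = 0.413). CG8112 (3R, 4538655 to 4540985), which carries the RefSeq synonym ACAT, the enzyme family that makes sterol esters, was 32.4, 56.97, 34.6 and 63.6 FPKM in ALF and 11.2, 21.3, 10.8 and 11.05 FPKM in TRF. That was the largest difference of the 24 leading genes, -1.71 ± 0.19 (adjusted p = 0.413). Cks85A, a cyclin-dependent kinase subunit, overlaps CG8112 on the opposite strand and had the same profile (26.4 to 48.7 FPKM in ALF, 12.2 to 19.1 FPKM in TRF); their reads cannot be separated.

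Act88F was 36.1, 50.2, 47.6 and 49.0 FPKM in ALF and 20.5, 27.4, 30.8 and 21.0 FPKM in TRF. The groups did not overlap (-0.86 ± 0.11, adjusted p = 0.672). In whole bodies, fewer cells of a type and less RNA per cell cannot be told apart. TotA, a secreted Turandot stress peptide, was 166, 54.8, 48.5 and 110 FPKM in ALF and 70.5, 35.01, 22.5 and 30.2 FPKM in TRF (-1.19 ± 0.19, adjusted p = 0.919). The ranges of the groups overlapped, and TRF was lower in 4 of 4 pairs. Amyrel, an amylase relative, was 6.16 to 23.2 FPKM in ALF and 3.02 to 5.89 FPKM in TRF. smp-30, the fly regucalcin relative, was 308 to 364 FPKM in ALF and 144 to 246 FPKM in TRF. CG17560, a predicted fatty acyl-CoA reductase, was 40.3 to 208 FPKM in ALF and 19.9 to 165 FPKM in TRF, and over 3 pairs set 3 h apart its difference changed sign, from -0.62 to 0.22. CG15649, CG40198, CG14607 and CG9360 completed the list, with values of 4.90 to 49.6 FPKM in ALF and 2.41 to 26.1 FPKM in TRF.

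**Figure D2:**
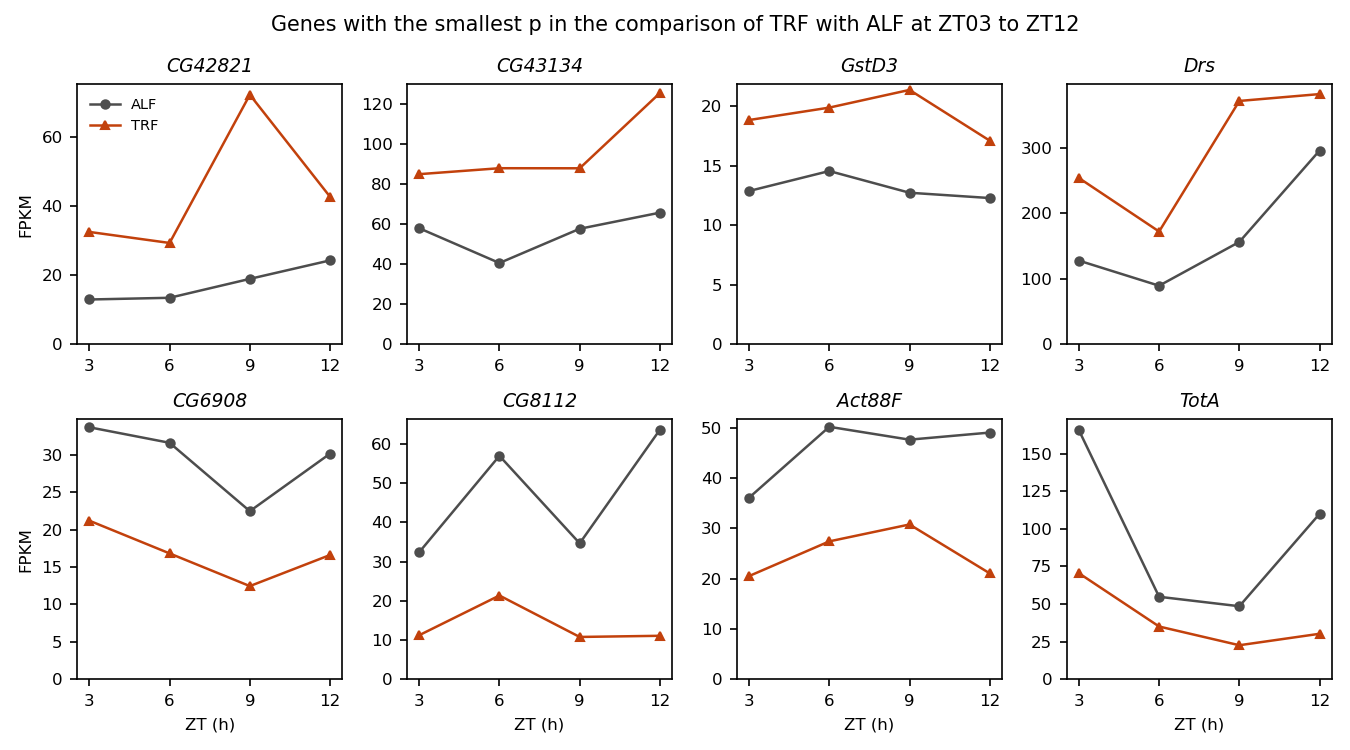
FPKM (vertical axis, from 0) of 8 leading genes against ZT in hours (horizontal axis), 1 library per point, ALF as grey circles and TRF as orange triangles. In the top row TRF lies above ALF at every hour, and in the bottom row below it; CG8112 was 32.4 to 63.6 FPKM in ALF and 10.8 to 21.3 FPKM in TRF.

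Libraries outside the 8 gave a check on these 24 genes. It did not use the ZT06 pairs of periphery at weeks 3 and 7, or the ZT06 and ZT09 pairs of head at week 5. Heads at weeks 3 and 7 were not used either. In the libraries of the same groups at the other hours (ZT00, ZT15, ZT18 and ZT21), 4 of the 12 genes higher in TRF again had a mean difference above 0, where 47.4% of all genes did. Of the 12 lower genes, 7 again had a mean difference below 0, beside 52.6% of all genes. Listericin was higher in TRF in each of those 4 pairs too, with a mean difference of 1.26. TotA had a mean difference of -0.91 there, lower in TRF in 3 of 4 pairs, and CG8112 had 0.36. In the single ZT12 pairs of other ages TotA was instead higher in TRF, at 29.7 against 11.9 FPKM at week 3 and 432 against 58.3 FPKM at week 7. Act88F was higher in TRF in these pairs too, at 28.7 against 19.7 FPKM at week 3 and 63.4 against 44.5 FPKM at week 7. In heart at ZT06 and ZT12, 6 of the 12 higher genes and 9 of the 12 lower genes had the same sign, beside 38.6% and 61.1% of all genes. In the periphery pair at ZT12 of week 3 the counts were 10 of 12 and 6 of 12, beside 39.6% and 60.1% of all genes. In that of week 7 they were 7 of 12 and 3 of 12, beside 38.8% and 60.9%. In heads at week 5, ZT03 and ZT12, they were 7 of 12 and 8 of 12, beside 34.8% and 59.8%. All these counts include both CG7300 and CR44181, and both CG8112 and Cks85A. The reads of each such pair of genes cannot be separated, so its members are not separate observations.

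A test of the difference itself, feeding hours against the other hours in 16 libraries, called 0 of 11992 genes (0%; 539, 4.49%, at an unadjusted p under 0.05; lowest adjusted p 0.853). CR44071, an antisense RNA within Dscam, had the smallest p, with 5.10 to 5.92 FPKM in ALF and 7.05 to 9.10 FPKM in TRF from ZT03 to ZT12; at the other hours it was lower in TRF (mean difference -0.50). CG8112, lower in TRF from ZT03 to ZT12, was split at the other hours. At ZT18 and ZT21 it was 13.4 and 12.1 FPKM in ALF but 37.1 and 33.0 FPKM in TRF. At ZT00 and ZT15 it was again lower in TRF, with 20.9 and 24.3 FPKM in ALF and 16.8 and 11.4 FPKM in TRF. Its change between the sets of hours was -2.08 ± 0.54 (adjusted p = 0.853). The higher values of CG8112 were thus at ZT06 and ZT12 in ALF and at ZT18 and ZT21 in TRF. CG5599, the transacylase subunit of the branched-chain keto acid dehydrogenase, was 21.1 to 25.4 FPKM in ALF and 15.6 to 21.9 FPKM in TRF, with a mean difference of 0.22 at the other hours.

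Antimicrobial peptide genes differed most in their course through the feeding hours. In ALF they were low at ZT03 and high at ZT09 or ZT12, and in TRF most were already high at ZT03. AttA, an attacin active against Gram-negative bacteria, was 35.7, 112, 528 and 421 FPKM in ALF and 374, 501, 115 and 65.5 FPKM in TRF. AttD was 1.28, 5.00, 14.4 and 47.6 FPKM in ALF and 13.1, 7.40, 10.2 and 2.97 FPKM in TRF. CecA1, a cecropin, was 88.8, 117, 174 and 208 FPKM in ALF and 269, 152, 152 and 94.1 FPKM in TRF. The lines of the groups thus crossed between ZT06 and ZT09 for all 3 genes. DptB, a diptericin, was 201, 312, 2029 and 1536 FPKM in ALF and 627, 852, 931 and 475 FPKM in TRF.

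The slope per hour from ZT03 to ZT12 was lower in TRF than in ALF for 24 of the 24 antimicrobial peptide genes tested (of 25 in the list; IM10 was too low), beside 46.9% of all genes. An unadjusted p under 0.05 in that direction was reached by 13 of the 24, against 3.03% of all genes. Across 12045 genes 0 slopes passed adjustment (0%; 573, 4.76%, at an unadjusted p under 0.05, 208 of them, 1.73%, higher in TRF), and the lowest adjusted p, 0.169, belonged to AttD, whose slopes differed by -0.66 ± 0.07 log2 units per hour. Without the ZT09 pair, AttD passed, as the only gene, with an adjusted p of 0.0230. Without the ZT03 pair the lowest adjusted p of the list was 0.742, and without the ZT03 or the ZT12 pair 21 of 24 slopes were lower in TRF. For CecA1 the difference was -0.29 ± 0.04 per hour (adjusted p = 0.197) and for AttA -0.75 ± 0.13 (adjusted p = 0.416). With TRF libraries set 3 h earlier and TRF ZT15 included, 21 of 24 slopes were lower in TRF, 9 of them at an unadjusted p under 0.05. The members share the same 8 libraries and are not separate observations. AttA with AttB and CecA1 with CecA2 are close copies, and the counting could split reads between them.

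Pair by pair, 24 of 24 genes were higher in TRF at ZT03 (median 1.47 log2 units), 21 of 24 at ZT06 (0.93), 6 of 24 at ZT09 (-0.54) and 7 of 24 at ZT12 (-1.07). Among all genes, 47.8%, 47.8%, 58.1% and 47.3% were higher in TRF in these pairs. Over the 4 hours the list's median difference was 0.19, beside 0.01 for all genes. Dro, which encodes drosocin, had another course than the attacins and cecropins. It was 226, 106, 718 and 1080 FPKM in ALF and 353, 405, 1066 and 1318 FPKM in TRF, with TRF higher at every hour. The genes pirk and PGRP-SB1 had courses like AttA. pirk, which dampens Imd signalling, was 11.6, 15.4, 32.8 and 34.7 FPKM in ALF and 48.3, 28.9, 15.5 and 14.5 FPKM in TRF (slope difference -0.38 ± 0.05, adjusted p = 0.197). PGRP-SB1, a peptidoglycan-degrading amidase, was 95.5, 160, 931 and 708 FPKM in ALF and 620, 655, 193 and 204 FPKM in TRF. Of the hemocyte markers, 7 of 10 could be tested, and their median differences were 0.11, 0.13, -0.39 and -0.28 from ZT03 to ZT12; their summed level was 136 to 161 FPKM in ALF and 120 to 143 FPKM in TRF, with He at 0.252 to 1.26 FPKM. For the fat body markers, of which Fbp1 was near 0, the medians were 0.89, -0.16, 0.31 and -0.21. Their part in the result was not tested.

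**Figure D3:**
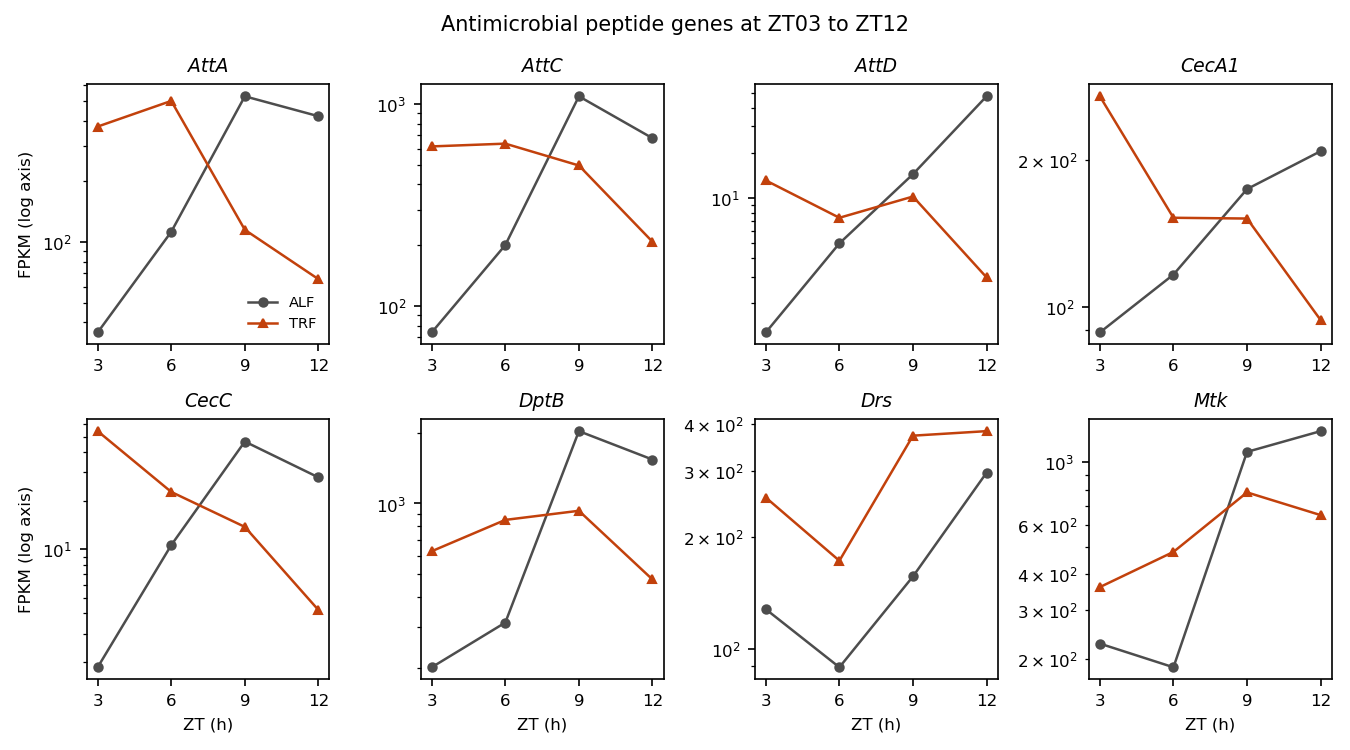
FPKM (vertical axis, log scale) of 8 antimicrobial peptide genes against ZT in hours (horizontal axis), 1 library per point, ALF as grey circles and TRF as orange triangles. AttA, AttC, AttD, CecA1, CecC, DptB and Mtk were lower in ALF than in TRF at ZT03 and higher at ZT12, whereas Drs was higher in TRF at every hour.

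Other genes with contrasting slopes included Elo68alpha, a fatty acid elongase, at 11.5, 17.9, 23.7 and 40.5 FPKM in ALF and 31.5, 17.5, 15.9 and 12.2 FPKM in TRF (slope difference -0.32 ± 0.03, adjusted p = 0.169). CG42807 was above ALF in TRF at every hour but converged with it, from 99.4 against 509 FPKM at ZT03 to 282 against 304 FPKM at ZT12. In the opposite direction, CG13827, a peroxisomal Pex11 relative by its RefSeq symbol, was 20.1, 14.8, 11.9 and 11.3 FPKM in ALF and 12.9, 14.1, 17.6 and 24.4 FPKM in TRF (0.18 ± 0.03, adjusted p = 0.303). lok, the fly CHK2 checkpoint kinase, was 7.16 FPKM at ZT03 and 4.27 FPKM at ZT12 in ALF, and 4.29 and 6.73 FPKM in TRF. The clock genes themselves did not pass: the slope difference of tim was -0.36 ± 0.18 per hour and that of per -0.25 ± 0.11 (adjusted p = 0.9997 for both), and with TRF set 3 h earlier they were 0.09 and 0.03. A slope shared by both groups was called for 0 of 12045 genes (0%), with 985 (8.18%) at an unadjusted p under 0.05 and a lowest adjusted p of 0.327.

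Of 27 digestive proteases tested, 10 had a difference above 0 and 17 below (median -0.19), beside 52.2% above 0 among all genes. At ZT03, 18 of 27 were higher in TRF, and at ZT12 5 of 27 were, beside 47.8% and 47.3% of all genes. The slope was lower in TRF for 21 of 27, 9 of them at an unadjusted p under 0.05, beside 46.9% and 3.03% of all genes. Jon65Aii, a chymotrypsin-like protease, was 0.473, 5.02, 11.6 and 37.6 FPKM in ALF and 0.723, 0.823, 1.86 and 3.15 FPKM in TRF, a slope difference of -0.36 ± 0.05 (adjusted p = 0.197). The abundant trypsin betaTry was 1673 to 1923 FPKM in ALF and 1488 to 1872 FPKM in TRF. Among 20 genes of carbohydrate digestion, 6 were above 0 and 14 below (median -0.06). Mal-B1, a maltase, went the other way from Amyrel: it was 24.8, 15.2, 82.3 and 32.8 FPKM in ALF and 106, 27.8, 95.3 and 145 FPKM in TRF (1.30 ± 0.34, adjusted p = 0.999).

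Lists of energy metabolism differed in their balance of signs, and no member passed the threshold. Of 18 fatty acid oxidation genes, 16 were below 0 (median -0.17), beside 47.8% of all genes, and the median was below 0 in each of the 4 pairs. CG3902, an acyl-CoA dehydrogenase, was 201, 218, 254 and 281 FPKM in ALF and 190, 186, 192 and 200 FPKM in TRF, without overlap (-0.30 ± 0.10, adjusted p = 0.999). yip2, a thiolase, was 135 to 230 FPKM in ALF and 119 to 152 FPKM in TRF. Among 17 genes of amino acid breakdown, 15 were below 0 (median -0.24), with a median above 0 at ZT06. The exceptions included kar, which was 10.6 to 18.2 FPKM in ALF and 14.8 to 19.3 FPKM in TRF. Genes of gluconeogenesis, glycogen and trehalose had 8 of 15 differences above 0 (median 0.00), and those of fat mobilisation and transport 6 of 15 (median -0.02). Within the former list, UGP, which makes UDP-glucose for glycogen and trehalose, was 263 to 296 FPKM in ALF and 150 to 248 FPKM in TRF. Pepck, the gluconeogenic enzyme that answers to fasting, was 1096, 416, 542 and 504 FPKM in ALF and 363, 266, 538 and 417 FPKM in TRF.

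For the respiratory chain, the balance of signs differed between hours. Of 40 complex I genes, 39 had a mean difference below 0, beside 47.8% of all genes, but the median was only -0.07. At ZT06 and ZT09, 37 and 36 of the 40 were lower in TRF, and at ZT03 and ZT12 13 and 13 were. Among all genes, 47.8%, 47.8%, 58.1% and 47.3% were above 0 in the pairs from ZT03 to ZT12. Of 51 genes of complexes II to V, 37 had a mean difference below 0 (median -0.08). Of these 51, 14, 44, 39 and 25 were lower in TRF from ZT03 to ZT12, so the ZT12 pair was evenly split. Complex I and complexes II to V each had 1 member without overlap, lower in TRF (1 of 40 and 1 of 51), beside 0.863% of all genes. CG6020, 1 of them, was 318 to 327 FPKM in ALF and 233 to 302 FPKM in TRF (-0.22 ± 0.10, adjusted p = 0.999). Of the cytosolic ribosomal protein genes, 78 of 89 were lower in TRF at ZT09 and 82 of 89 higher at ZT12. All 8 subunits of the TRiC chaperonin, which folds actin and tubulin, had mean differences above 0 (median 0.17), yet 7 of the 8 were lower in TRF at ZT06, so the sign was not the same in every pair.

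**Figure D4:**
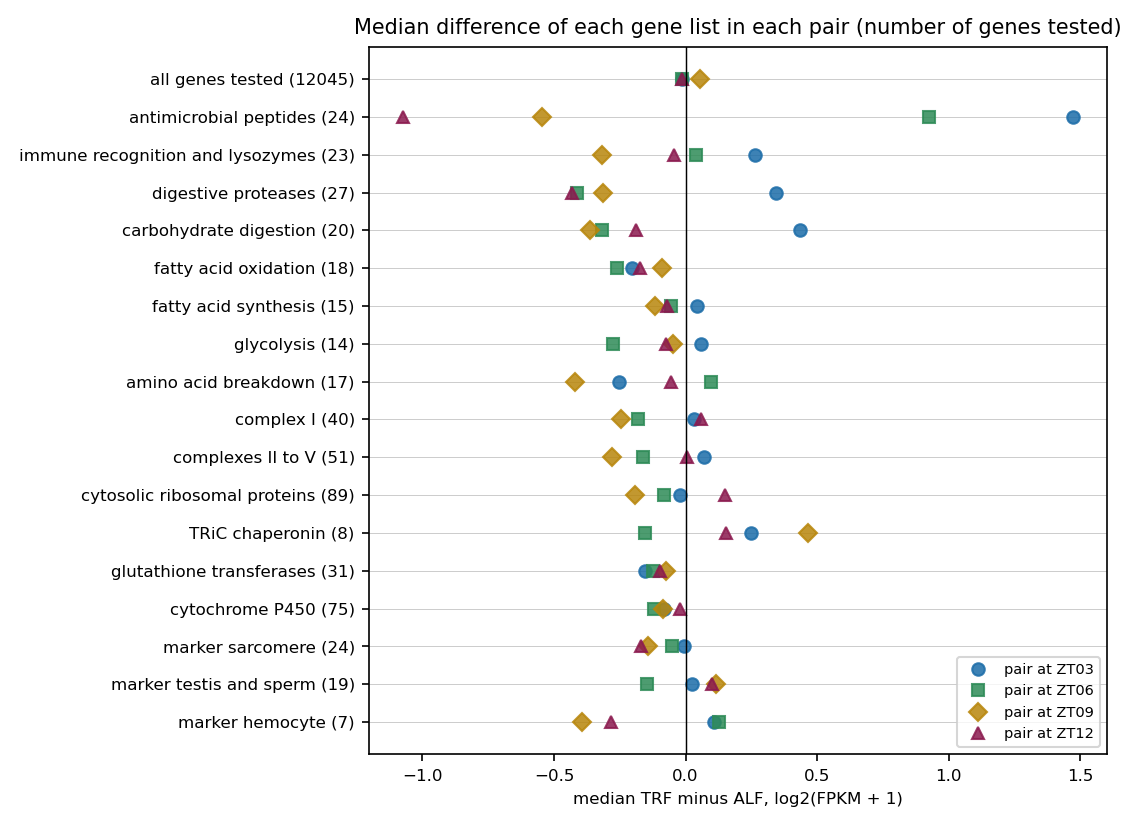
Median TRF minus ALF difference on the log2(FPKM + 1) scale (horizontal axis) for each gene list (vertical axis, with the number of genes tested), 1 symbol per pair of libraries at ZT03, ZT06, ZT09 and ZT12. The antimicrobial peptides run from 1.47 at ZT03 to -1.07 at ZT12, while most other lists lie within 0.5 of 0 and change sign between hours.

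Detoxification genes showed opposite differences within families. Of 31 glutathione transferases, 23 were below 0 (median -0.12, below 0 in all 4 pairs), and GstE9 was 208 to 231 FPKM in ALF and 133 to 173 FPKM in TRF (-0.45 ± 0.10, adjusted p = 0.999), against the higher values of GstD3. Of 75 cytochrome P450 genes, 54 were below 0 (median -0.08). The share below 0 among all genes was 47.8%. Cyp6a13 was 27.4 to 33.9 FPKM in ALF and 23.0 to 25.9 FPKM in TRF. Cyp4g1, which makes cuticular hydrocarbons in oenocytes, was the most abundant of the family. It was 8726, 9007, 9978 and 8662 FPKM in ALF and 11942, 10616, 11819 and 10658 FPKM in TRF, without overlap (0.31 ± 0.11, adjusted p = 0.999). l(2)efl, a small heat shock protein, was 332, 250, 297 and 339 FPKM in ALF and 462, 324, 355 and 448 FPKM in TRF (0.38 ± 0.09, adjusted p = 0.999).

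Small sterol-binding proteins of the Npc2 family and odorant-binding proteins went both ways. Npc2e was 10.3 to 19.5 FPKM in ALF and 18.9 to 47.4 FPKM in TRF, higher in 4 of 4 pairs (1.10 ± 0.25, adjusted p = 0.999). Npc2h was 127, 118, 138 and 173 FPKM in ALF and 126, 100, 70.9 and 65.3 FPKM in TRF. Obp49a was 2.02, 0.921, 2.29 and 0.851 FPKM in ALF and 4.28, 2.201, 5.18 and 2.39 FPKM in TRF, higher in 4 of 4 pairs (0.83 ± 0.11, adjusted p = 0.672). Of the 31 odorant-binding protein genes tested, 16 were above 0. Jheh1, a juvenile hormone epoxide hydrolase, was 80.6 to 130 FPKM in ALF and 52.3 to 80.4 FPKM in TRF (-0.57 ± 0.16, adjusted p = 0.999).

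Muscle genes were on the low side in TRF, led by Act88F. Of 24 sarcomere genes, 22 were below 0, beside 47.8% of all genes, with a median of -0.09. The ZT03 pair was nearer even, with 10 above 0 and 14 below (median -0.01), where 47.8% of all genes were above 0. At the other hours of the day the list's median was 0.01. The summed level was 4377 to 4912 FPKM in ALF and 4285 to 4556 FPKM in TRF. The members share the same 8 libraries and are not separate observations. Flightin (fln), a flight muscle protein, was 42.0 to 68.0 FPKM in ALF and 28.2 to 56.5 FPKM in TRF (-0.54 ± 0.26, adjusted p = 0.999). Act79B, the actin of tubular muscles, was 114 to 139 FPKM in ALF and 96.4 to 119 FPKM in TRF. Testis and sperm markers had a median of 0.03, with 12 of 19 above 0, and gut markers a median of 0.07, with 9 of 12 above 0. Over 4 pairs set 3 h apart the gut marker median was 0.10.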

How the data were processed

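RNA levels came from the table of FPKM values that the authors deposited for 29260 RefSeq transcripts in 72 unstranded polyA+ libraries, per the labels. The tools in the submitters' processing notes are HOMER, STAR 2.2.0c and CASAVA 1.8.2, and the build there is dm3; their roles are not given in the sources used here. For each of 15240 genes, the transcript of highest mean FPKM stood for the gene. Besides those marked above, named genes that overlap another in position include Amyrel (gprs), CG9360 (m), Mal-B1 (Pde1c), l(2)efl (St3) and lok (vls). Their unstranded reads may include reads of those neighbours. Low FPKM values were whole multiples of 1 read (100% within 0.05 reads), which gave the depth.

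The values were taken from the deposited table to the log2(FPKM + 1) scale and tested with limma 3.58.1 (R 4.3.3), using a mean-variance trend and Benjamini-Hochberg adjustment at 0.05. Only genes averaging 1 FPKM or more in the libraries of a fit were tested. Fold differences on that scale understate low genes. TRF was compared with ALF with ZT as a block (3 residual degrees of freedom). The contrast between hours used all 8 ZTs, and slopes used ZT as a number without a block. The fits were checked on simulated data. Pairing came from the ZT labels; deviations from the group means at equal ZT correlated across genes at -0.15, -0.25, 0.04 and 0.05, and at 0.46, 0.38 and 0.06 with TRF 3 h later.

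Named genes were those called, or else, for each direction, the 12 of smallest unadjusted p with the same sign in 4 pairs, a mean of at least 5 FPKM and a transcript of at least 300 bases; for slopes and hours, 5 per direction; per list, the 2 of smallest p and the 2 highest; all clock genes. Other genes named were chosen after their values were seen. Members and the 43 lists (1090 genes) were chosen with earlier results of these data known. Symbols came from the deposited annotation and RefSeq names of Release 6. Alternatives were other pseudocounts, filters, scalings and transcripts, robust estimates, no block, a spread shared by 16 libraries, limma-voom and leaving out each pair; the pairing 3 h apart was added after the data were seen. Figures used matplotlib 3.10.9.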

Additional observations from a re-analysis of the deposited data

Results flagged for a closer look

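In each of 174 groups of 4 values the highest or lowest library was set against the rest, and 9 stood far apart. Among repeats of 1 condition, chance alone gives about 1 in 20 groups. The 4 values of a group here are from different hours and are not repeats of 1 condition. Many of the genes were also named for their values, so 9 of 174 cannot be read against that share. In TRF at ZT03, per was 18.2 FPKM, with 2.60 to 4.74 FPKM at the other 3 hours, and Pdp1 was 129 FPKM, with 47.8 to 55.9 FPKM. CG43134 in TRF was 126 FPKM at ZT12 and 85.1 to 88.1 FPKM at the others. At ZT06 in TRF the overlapping genes CG8112 and Cks85A were 21.3 and 19.1 FPKM, against 10.8 to 11.2 FPKM and 12.2 to 12.6 FPKM at the other hours. Amyrel was 3.02 FPKM there, below 5.83 to 5.89 FPKM. In ALF, CR44181 was 5.33 FPKM at ZT09 (others 4.63 to 4.71 FPKM), CG15649 was 15.3 FPKM at ZT09 (others 10.1 to 10.9 FPKM) and the drosomycin-like gene Drsl3 was 26.6 FPKM at ZT12 (others 4.33 to 5.68 FPKM).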

How the results depend on the processing

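The comparison of TRF with ALF called 0 genes under every alternative run, with 237 to 726 genes at an unadjusted p under 0.05 when a pair was left out. Without the replicate block it also called 0 genes (355 at an unadjusted p under 0.05; lowest adjusted p 0.227), and the hours contrast without the replicate block called 0 (lowest adjusted p 0.0772); same-hour libraries did not deviate together. A spread shared by 16 libraries gave 0 calls (lowest adjusted p 0.0825). Slopes gave 0 to 1 calls when a pair was left out, the single call being AttD without ZT09 (-0.69 per hour). Genes without overlap, 202 in all, became 664 to 1429 when a pair was left out, since 3 values a side overlap less often than 4. Of 1356 recomputed values for named genes, 3 changed sign: CG17560 (0.22, 3 pairs set 3 h apart) and the slope differences of tim (0.0925) and per (0.0284) with TRF 3 h earlier. Cyp4g1 had a difference of 0 under quantile normalization, which gives the same value to a gene that ranks highest in every library. Of 731 recomputed list medians, 8 moved by more than the spread between pairs. Precision is limited by 1 library per hour, and low genes such as CG31832 had as few as 3 reads.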

Other observations

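A few genes switched between low and high levels among the 8 libraries, within both feeding types. They were chosen after their values were seen. nos, the germline translational repressor nanos, was 3.98, 21.9, 3.73 and 52.8 FPKM in ALF from ZT03 to ZT12 and 3.95, 5.08, 61.4 and 50.04 FPKM in TRF. brp, which builds the active zone of synapses, followed it closely, with 1.91, 6.11, 1.94 and 12.3 FPKM in ALF and 1.65, 3.31, 18.0 and 13.2 FPKM in TRF. The libraries with high nos were thus ALF ZT06 and ZT12 and TRF ZT09 and ZT12, although the genes lie on different chromosome arms. Lsd-1, a lipid droplet perilipin, varied as widely: 30.9, 382, 156 and 193 FPKM in ALF and 99.7, 51.2, 744 and 211 FPKM in TRF. Thor, the translation inhibitor 4E-BP that marks low insulin signalling, was 1139 FPKM at ZT03 in ALF and 848 FPKM at ZT06 in TRF, and 261 to 506 FPKM in the other 6 libraries.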
